A study of Homo sapiens with 6 samples.

Results

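The genes described here are 43 human cyclins, cyclin-dependent kinases (CDKs), CDC25 phosphatases, CDK-binding CKS proteins, CDK-inhibitory kinases and CDK inhibitors. They were chosen by gene name, with earlier results of these data known. Each gene was read from the array's transcript clusters, the probe groups that stand for 1 locus, taking clusters annotated with that symbol alone and, among several, the brightest over the 6 arrays. Of the 43 genes, 41 had such a cluster, out of 22411 genes represented in the table, and 38 were bright enough to be tested. CDK9, whose cluster is annotated with other genes too, and CDKN2C were not analysed here. CCND2, CDKN2A and CDKN2B lay under the brightness filter, a mean of 3.98 on the log2 scale, which is the median over all transcript clusters.

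Total RNA came from U87MG cells, an established human glioblastoma line, each sample infected with a lentivirus carrying a short hairpin RNA and harvested 5 days after drug selection. The cells carried the hairpin named sh50 (2 arrays), the hairpin named sh52 (2 arrays) or a hairpin against GFP, shGFP (2 arrays), so that infection and selection were common to all groups. The series title names SAT1, the rate-limiting enzyme of polyamine breakdown, while no target of sh50 or sh52 is stated. Within each group the arrays carry the numbers 1 and 2, and nothing says that they came from separate infections, so the p-values cover the spread between these samples alone, and that spread may be technical.

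Cyclins are proteins whose level rises and falls through the cell cycle, and each switches on a CDK, a kinase that has little activity alone. D- and E-type cyclins with their kinases carry cells from G1 into S phase by phosphorylating the retinoblastoma protein, and A- and B-type cyclins drive S phase, G2 and mitosis. CDC25 phosphatases remove, and WEE1 and PKMYT1 add, the inhibitory phosphates on CDKs, and the CIP/KIP and INK4 proteins block the kinases. Another branch of the same families (cyclins C, H, K, L and T with their CDKs) works on RNA polymerase II and on splicing rather than on cell division.

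The array labelled sh52 replicate 1 stood apart from the others in measures outside these genes. SAT1 read 9.36 and 8.35 (log2) on the sh50 arrays and 10.83 and 7.84 on the sh52 arrays, against 9.45 and 8.96 on the shGFP arrays, replicate 1 before replicate 2 here and throughout. That array held the highest SAT1 value, and it also had the highest mean of 8 spike-in controls, 9.83, where the other hairpin arrays lay between 9.24 and 9.26 and the shGFP arrays at 9.25 and 8.88. Markers of a mesenchymal glioblastoma line were bright (VIM, CD44, FN1 and CHI3L1), GFAP lay just above the filter, and S100B, OLIG2 and SOX2 lay under it. The summed log2 level of the 9 such markers with a cluster, of 10 listed and 6 past the filter, was 80.5 to 82.9 on the hairpin arrays and 77.1 to 79.4 on the shGFP arrays. These markers did not move together. CHI3L1 read 8.91 to 11.14 on the hairpin arrays and 7.46 and 7.03 on the shGFP arrays. FN1 read 18.52 to 18.87 against 17.71 and 17.35, and VIM was lower, at 15.54 to 15.95 against 15.99 and 16.10. CD44 and NES, which also passed the filter, overlapped between hairpin and shGFP arrays. Of the blood, epithelial and endothelial markers, PTPRC, CD14, AIF1, CD3E, CDH1, KRT19, ESRP1, PECAM1, CDH5 and VWF lay under the filter. CD68, CSF1R, CD79A, LCP1, EPCAM, KRT8, KRT18, CLDN4, TEK and KDR passed it, and CD68 read 15.52 to 15.85 on the hairpin arrays and 15.61 and 15.34 on the shGFP arrays. The summed level was 44.0 to 45.5 on the hairpin arrays and 43.9 to 44.1 on the shGFP arrays for 8 blood markers, of which 4 passed the filter. For 7 epithelial markers (4 passed) it was 30.0 to 31.3 on the hairpin arrays and 30.1 to 30.7 on the shGFP arrays, and for 5 endothelial markers (2 passed) 21.5 to 22.0 on the hairpin arrays and 20.9 to 21.6 on the shGFP arrays. The part of these differences in the results below was not tested. All values are the deposited expression values, read as log2, and the small number of arrays limits their precision.

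Across the 38 genes tested, 28 had a lower and 10 a higher mean in the cells with either hairpin than in shGFP cells, while 50.8% of all 33764 transcript clusters tested had a lower mean. Their median difference was -0.41 on the log2 scale, and the median over all clusters was -0.0045. In 15 genes all 4 hairpin arrays lay below both shGFP arrays, in 2 they lay above, and in 21 the groups overlapped, where 10.1% of all clusters lay below and 8.98% above. No gene passed limma's test for the mean of both hairpins against shGFP at an adjusted p of 0.05, where 0.0% of all clusters passed. At an unadjusted p under 0.05, 12 of the 38 were lower and 0 higher, and the share of all clusters was 4.83% lower and 4.35% higher. RNA was read from bulk cultures, so fewer cells in a given cycle phase and less RNA per cell cannot be told apart.

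**Figure D1:**
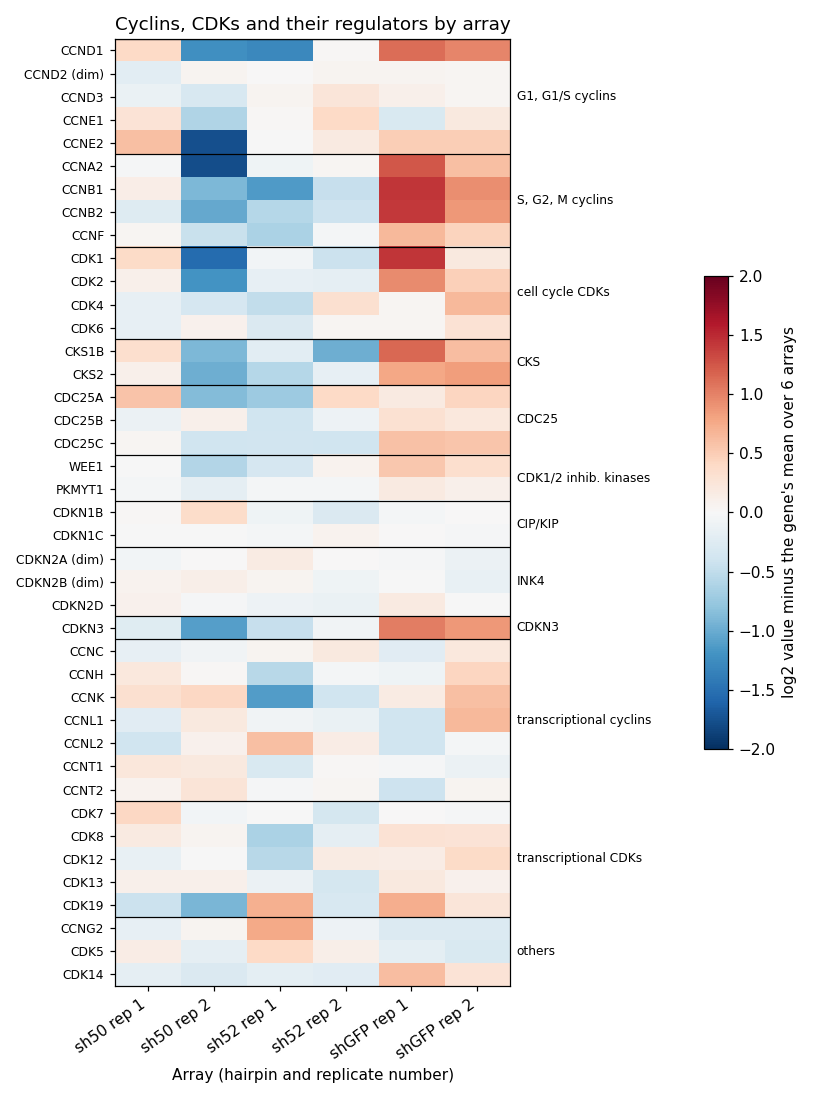
Heat map of the 41 genes with a cluster (rows, grouped by role, with the 3 under the filter marked dim) on the 6 arrays (columns: sh50, sh52, then shGFP), with colour for the difference of each log2 value from that gene's mean over the arrays (red higher, blue lower). The A- and B-type cyclin rows are highest on the shGFP columns, whereas rows of the transcriptional cyclins and CDKs show no common order of columns.

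The cyclins of S phase, G2 and mitosis stood lower in both hairpin groups than in shGFP cells, in all 4 genes of that class and without overlap between the arrays. Of all clusters, 10.1% had all 4 hairpin arrays below both shGFP arrays. CCNB1, whose protein binds CDK1 to start mitosis, read 11.49 and 10.46 on the sh50 arrays and 10.22 and 10.89 on the sh52 arrays, against 12.79 and 12.28 on the shGFP arrays. CCNB2, the other mitotic B-type cyclin, read 9.67 and 8.90 on the sh50 arrays and 9.36 and 9.51 on the sh52 arrays, against 11.35 and 10.79 on the shGFP arrays. Both shGFP arrays lay above every hairpin array for these genes, and for CCNB2 by more than the hairpin arrays differed among themselves. The difference of the mean of both hairpins from shGFP was -1.77 ± 0.36 (SE) for CCNB1 (95% interval -2.67 to -0.86), 3.4-fold lower, with an adjusted p of 0.456 in limma's test. For CCNB2 it was -1.71 ± 0.28 (95% interval -2.40 to -1.02), 3.28-fold lower, with limma's adjusted p also 0.456. Folds here and below take the deposited values as log2 without further scaling.

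CCNA2, the cyclin of S phase and G2 that partners CDK2 and then CDK1, read 12.60 and 10.86 on the sh50 arrays and 12.53 and 12.66 on the sh52 arrays, against 13.87 and 13.23 on the shGFP arrays. Here sh50 replicate 2 was the lowest array by a wide margin, and the other hairpin arrays lay close together. The difference for the mean of both hairpins was -1.39 ± 0.49 (SE, limma's adjusted p 0.509). CCNF, a cyclin that serves as the substrate receptor of a ubiquitin ligase and activates no CDK, read 6.71 and 6.22 on the sh50 arrays and 6.04 and 6.63 on the sh52 arrays, against 7.32 and 7.11 on the shGFP arrays, a difference of -0.82 ± 0.24 (SE, limma's adjusted p 0.472). Its hairpin arrays were spread over a wider range than its controls and still lay under both of them.

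Among the G1 cyclins, CCND1 lay wholly below shGFP with both hairpins, and the E-type cyclins overlapped with it. CCND1, the cyclin D1 gene that activates CDK4 and CDK6, read 14.88 and 13.25 on the sh50 arrays and 13.18 and 14.50 on the sh52 arrays, against 15.60 and 15.46 on the shGFP arrays. The shGFP arrays were close together and above all hairpin arrays, and the lowest arrays were sh52 replicate 1 and sh50 replicate 2. The difference for the mean of both hairpins was -1.58 ± 0.55 (SE, 95% interval -2.95 to -0.20), 2.98-fold lower, with a limma adjusted p of 0.505, and its SE is among the widest of the 38 genes. Without sh52 replicate 1 it did not move by more than 1.5 times. CCND3, another D-type cyclin, differed by -0.12 ± 0.14 (SE, limma's adjusted p 0.878), with overlapping arrays.

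CCNE1, which activates CDK2 at the entry to S phase, read 8.27 and 7.39 on the sh50 arrays and 8.03 and 8.40 on the sh52 arrays, against 7.70 and 8.20 on the shGFP arrays. Its group means lay within the spread between arrays, and the difference was 0.074 ± 0.30 (SE, limma's adjusted p 0.972). CCNE2, the second E-type cyclin, read 9.23 and 6.87 on the sh50 arrays and 8.61 and 8.80 on the sh52 arrays, against 9.12 and 9.11 on the shGFP arrays. Only sh50 replicate 2 stood far below the rest, and the difference of -0.74 ± 0.62 (SE, limma's adjusted p 0.796) became -0.15 without that array and -1.33 without sh50 replicate 1. CCND2, under the filter, read 3.20 to 3.46 on the hairpin arrays and 3.46 and 3.45 on the shGFP arrays.

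Among the cell cycle kinases and the subunits that dock on them, CDK2, CKS1B and CKS2 lay wholly below shGFP, and CDK1, CDK4 and CDK6 overlapped with it. CDK2, the kinase of S phase, read 10.08 and 8.79 on the sh50 arrays and 9.82 and 9.80 on the sh52 arrays, against 10.92 and 10.46 on the shGFP arrays. Every hairpin array was under both controls, and the difference was -1.07 ± 0.37 (SE, limma's adjusted p 0.505), 2.09-fold lower. CDK1, the kinase of mitosis, read 10.52 and 8.60 on the sh50 arrays and 10.08 and 9.71 on the sh52 arrays, against 11.56 and 10.33 on the shGFP arrays. Its groups overlapped, since shGFP replicate 2 lay below sh50 replicate 1. The difference of -1.22 ± 0.61 (SE, 95% interval -2.73 to 0.29, limma's adjusted p 0.613) was -0.74 without sh50 replicate 2, -0.61 without shGFP replicate 1 and -1.83 without shGFP replicate 2.

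CDK4 and CDK6, the kinases of D-type cyclins, overlapped between groups. CDK4 differed by -0.51 ± 0.29 (SE, limma's adjusted p 0.677), and by -0.30 without sh52 replicate 1, -0.81 without shGFP replicate 1 and -0.20 without shGFP replicate 2. CDK6 differed by -0.25 ± 0.18 (SE, limma's adjusted p 0.744), and by -0.38 without shGFP replicate 1 and -0.12 without shGFP replicate 2. CKS1B and CKS2 encode small proteins that dock on CDKs and guide them to phosphorylated partners. CKS1B read 7.34 and 6.11 on the sh50 arrays and 6.80 and 6.03 on the sh52 arrays, against 8.15 and 7.62 on the shGFP arrays, a difference of -1.32 ± 0.42 (SE, limma's adjusted p 0.484). CKS2 read 11.78 and 10.70 on the sh50 arrays and 11.12 and 11.52 on the sh52 arrays, against 12.46 and 12.51 on the shGFP arrays, a difference of -1.21 ± 0.32 (SE, limma's adjusted p 0.469). Neither gene overlapped between the hairpin and shGFP arrays, and in CKS1B replicate 1 was above replicate 2 in every group.

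**Figure D2:**
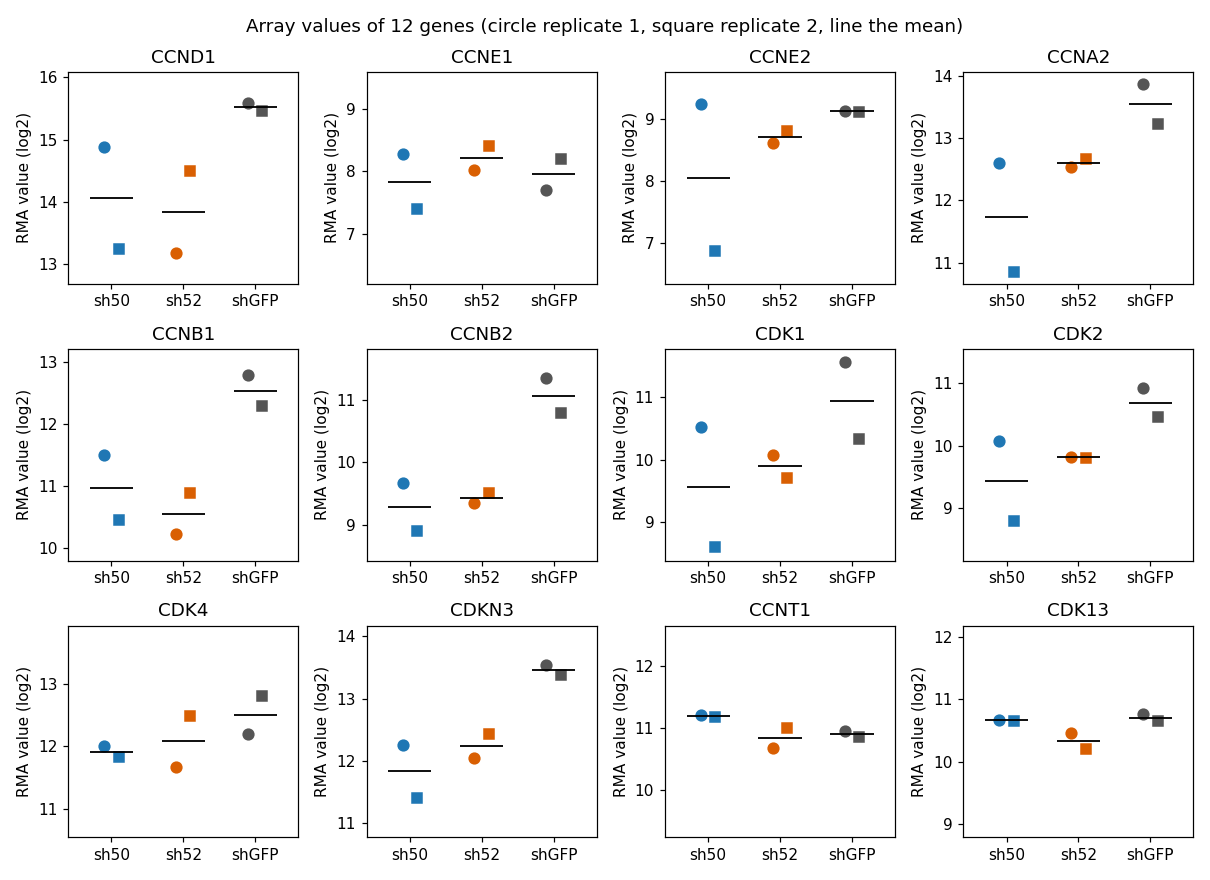
Log2 value (vertical axis) of 12 of the genes, with 1 point per array (circle replicate 1, square replicate 2), the sh50 and sh52 arrays left of the shGFP arrays and a line at each group mean. CCNB1, CCNB2 and CDKN3 have no overlap between hairpin and shGFP arrays, and CDK1 and CCNE2 overlap through 1 array each.

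Of the CKS subunits, the CDC25 phosphatases and the inhibitory kinases, all 7 tested had a lower mean in the hairpin groups, and in 6 all hairpin arrays lay below both shGFP arrays, where 50.8% and 10.1% of all clusters did so. CDC25C, a phosphatase that activates CDK1 at mitosis, read 6.38 and 5.94 on the sh50 arrays and 5.96 and 5.94 on the sh52 arrays, against 6.92 and 6.89 on the shGFP arrays. The 4 hairpin arrays lay between 5.94 and 6.38 and both controls above them, a difference of -0.85 ± 0.17 (SE, limma's adjusted p 0.456), 1.81-fold lower. CDC25B, which acts in G2, differed by -0.39 ± 0.16 (SE, limma's adjusted p 0.55), also without overlap. CDC25A, which acts at the entry to S phase, read 7.64 and 6.21 on the sh50 arrays and 6.35 and 7.48 on the sh52 arrays, against 7.25 and 7.51 on the shGFP arrays, and its groups overlapped. Its difference of -0.46 ± 0.49 (SE, limma's adjusted p 0.853) was -0.82 without sh50 replicate 1, -0.10 without sh50 replicate 2, -0.18 without sh52 replicate 1 and -0.74 without sh52 replicate 2.

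WEE1, the kinase that holds CDKs inactive until mitosis, read 9.01 and 8.42 on the sh50 arrays and 8.68 and 9.08 on the sh52 arrays, against 9.56 and 9.36 on the shGFP arrays. It lay below both controls on every hairpin array, as did the activator CDC25C with the opposite role, and differed by -0.66 ± 0.23 (SE, limma's adjusted p 0.505). PKMYT1, a related inhibitory kinase at the membrane, lay just inside the filter with a mean of 4.08 and differed by -0.22 ± 0.13 (SE, limma's adjusted p 0.689). CDKN3 encodes a phosphatase that removes the activating phosphate of CDKs and is listed among the inhibitors by its symbol. CDKN3 read 12.26 and 11.41 on the sh50 arrays and 12.05 and 12.44 on the sh52 arrays, against 13.54 and 13.38 on the shGFP arrays, a difference of -1.42 ± 0.27 (SE, limma's adjusted p 0.456), 2.68-fold lower. The controls were close together, and no hairpin array came near either of them.

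The CIP/KIP and INK4 inhibitors of the set that were tested had differences close to 0. CDKN1B, a CIP/KIP inhibitor of CDK2 complexes, read 8.001 and 8.34 on the sh50 arrays and 7.89 and 7.69 on the sh52 arrays, against 7.94 and 7.98 on the shGFP arrays. The mean of both hairpins differed from shGFP by 0.024 ± 0.16 (SE, 95% interval -0.37 to 0.42, limma's adjusted p 0.984), with the sh50 arrays above and the sh52 arrays below the controls. CDKN1C, another CIP/KIP inhibitor, lay just inside the filter with a mean of 4.16 and differed by 0.01 ± 0.13 (SE, limma's adjusted p 0.991). CDKN1A, a CIP/KIP gene outside the set, differed by 0.26 ± 0.26 (SE, limma's adjusted p 0.831), with overlap. CDKN2D, an INK4 inhibitor of CDK4 and CDK6, differed by -0.13 ± 0.14 (SE, limma's adjusted p 0.845) with overlap. CDKN2A and CDKN2B, whose locus is known to be deleted in U87MG cells, read 3.67 to 3.88 and 3.03 to 3.23 on the hairpin arrays, against 3.69 and 3.61 for CDKN2A and 3.10 and 2.97 for CDKN2B on the shGFP arrays. Both lay under the filter on every array and were not tested.

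**Figure D3:**
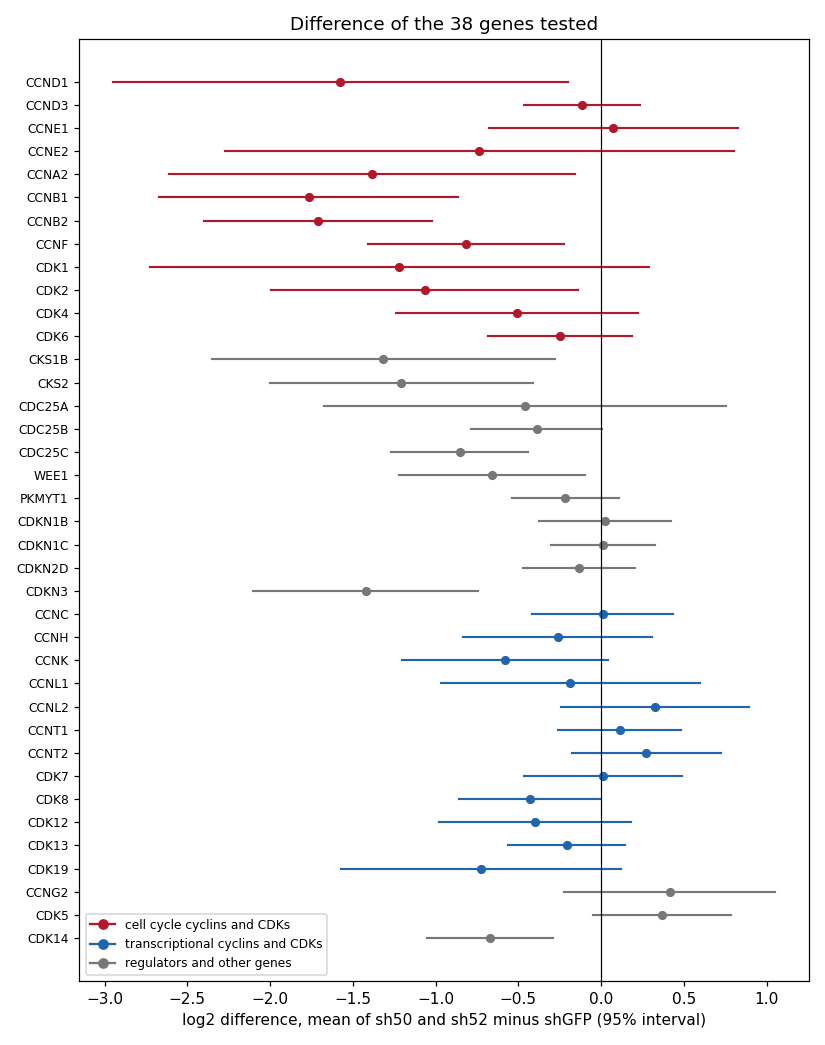
Log2 difference of the mean of sh50 and sh52 from shGFP (horizontal axis) for each tested gene (rows, by role), with points at the estimate and bars for the 95% interval of limma's fit. CCNB1, CCNB2 and CDKN3 lie left of 0 with intervals that exclude it before adjustment, while all 12 transcriptional cyclins and CDKs have intervals across 0.

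The cyclins and CDKs of transcription were set against those of the cell cycle. Of the 12 cell cycle cyclins and CDKs tested, 11 had a lower mean in the hairpin groups, 6 lay wholly below shGFP and 0 above, and 6 had an unadjusted p under 0.05, with a median difference of -0.94. Of the 12 transcriptional cyclins and CDKs tested, 7 had a lower and 5 a higher mean, 1 lay wholly below and 0 above, and 0 had an unadjusted p under 0.05, with a median of -0.20. Neither class had a gene past limma's adjusted threshold, and of all clusters 50.8% had a lower mean, 10.1% lay wholly below and 4.83% were lower at an unadjusted p under 0.05. The counts wholly below depend on the control arrays: without shGFP replicate 1 they were 8 cell cycle and 6 transcriptional genes, and 25.7% of all clusters, and without shGFP replicate 2 they were 7 and 3, and 18.7% of all clusters.

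CDK7 and CCNH are kinase and cyclin of the complex that both activates other CDKs and phosphorylates RNA polymerase II. CDK7 differed by 0.011 ± 0.19 (SE, limma's adjusted p 0.993) and CCNH by -0.26 ± 0.23 (SE, limma's adjusted p 0.804), a value that ranged from -0.52 to -0.0008 when 1 array was left out, the ends being without shGFP replicate 1 and without shGFP replicate 2. CCNT1 and CCNT2, cyclins of the elongation kinase CDK9, had higher means, by 0.11 ± 0.15 and 0.27 ± 0.18 (SE, limma's adjusted p 0.894 and 0.725), and both overlapped with the controls. With 1 array left out, CCNT1 ranged from 0.031 (without sh52 replicate 2) to 0.19 (without sh52 replicate 1) and CCNT2 from 0.035 (without shGFP replicate 1) to 0.51 (without shGFP replicate 2). CCNC is the cyclin of the Mediator kinases CDK8 and CDK19, and it differed by 0.011 ± 0.17 (SE, limma's adjusted p 0.992). CDK8 read 8.81 and 8.67 on the sh50 arrays and 7.996 and 8.45 on the sh52 arrays, against 8.91 and 8.90 on the shGFP arrays, the only gene of this class with all hairpin arrays below both controls, a difference of -0.43 ± 0.17 (SE, limma's adjusted p 0.545). CDK19, its close relative, read 8.34 and 7.85 on the sh50 arrays and 9.48 and 8.45 on the sh52 arrays, against 9.50 and 9.02 on the shGFP arrays, with overlap through sh52 replicate 1. Its difference of -0.73 ± 0.34 (SE, limma's adjusted p 0.59) became -0.47 without sh52 replicate 2.

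CCNK, the cyclin that activates CDK12 and CDK13 on elongating polymerase, read 10.62 and 10.70 on the sh50 arrays and 9.17 and 9.89 on the sh52 arrays, against 10.46 and 10.89 on the shGFP arrays. Only the sh52 arrays were low, and the difference of -0.58 ± 0.25 (SE, limma's adjusted p 0.562) for the mean of both hairpins became -0.36 without shGFP replicate 2. Its kinases differed by -0.40 ± 0.23 for CDK12 (-0.22 without sh52 replicate 1) and -0.21 ± 0.14 for CDK13 (SE, limma's adjusted p 0.681 and 0.734). Of the cyclins, CDKs and regulators described here, only CDK12 had a second cluster of its own symbol. That cluster was far dimmer, at 5.03 to 5.49 on the hairpin arrays and 4.90 and 4.85 on the shGFP arrays. Its hairpin arrays were thus above both controls. CCNL1 and CCNL2, cyclins tied to splicing, differed by -0.19 ± 0.32 and 0.33 ± 0.23 (SE, limma's adjusted p 0.922 and 0.744) and overlapped between groups. The CCNL1 difference was -0.71 without shGFP replicate 1 and 0.34 without shGFP replicate 2, which differ widely from each other, and the CCNL2 difference ranged from 0.15 without shGFP replicate 1 to 0.50 without shGFP replicate 2.

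The difference between the class medians was taken on each array, after centring each gene on its mean over the 6 arrays, over 13 cell cycle genes (with CCND2, under the filter) and 12 transcriptional ones. The cell cycle median minus the transcriptional median was -0.048 and -0.97 on the sh50 arrays and -0.064 and 0.12 on the sh52 arrays, against 0.66 and 0.25 on the shGFP arrays. Both controls lay above all hairpin arrays, with sh50 replicate 2 lowest and sh52 replicate 2 closest to the controls. The group means were -0.51 ± 0.65 for sh50 and 0.030 ± 0.13 for sh52, against 0.45 ± 0.29 for shGFP (SD, n = 2 each). Against shGFP this is a difference of -0.96 (sh50), -0.42 (sh52) and -0.69 (mean of both), beside a pooled SD between arrays of 0.42. Without shGFP replicate 1 these became -0.63, -0.20 and -0.41, without sh50 replicate 2 the sh50 difference was -0.58, and without shGFP replicate 2 the sh52 difference was -0.68. Without sh52 replicate 1, 16 of the 38 genes lay wholly below the controls, 6 of them cell cycle and 2 transcriptional cyclins or CDKs, and 13.9% of all clusters did so. Without shGFP replicate 1 that count was 22 (25.7% of all clusters), and without shGFP replicate 2 it was 19 (18.7%).

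**Figure D4:**
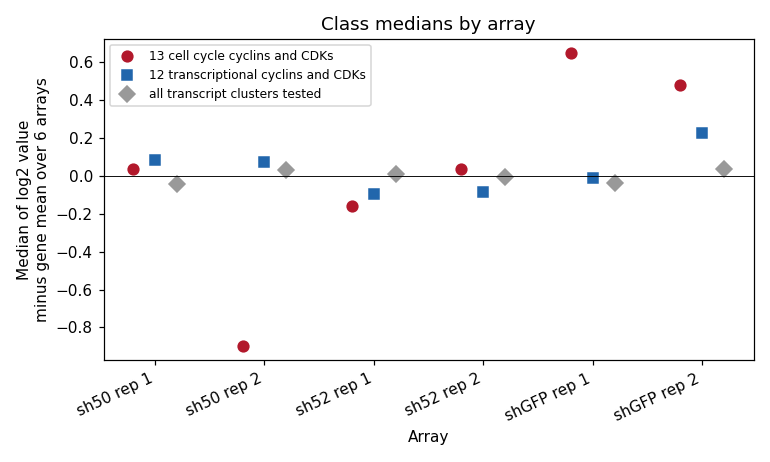
Median of centred log2 values (vertical axis) for the 13 cell cycle cyclins and CDKs (circles), the 12 transcriptional ones (squares) and all clusters tested (diamonds), with the 6 arrays along the horizontal axis (sh50, sh52, then shGFP). The cell cycle median is between -0.90 and 0.037 on the hairpin arrays and at 0.65 and 0.48 on the shGFP arrays.

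Of the genes outside these classes, CDK14, a kinase that partners cyclin Y at the membrane in Wnt signalling, stood lower with both hairpins. It read 6.98 and 6.88 on the sh50 arrays and 6.97 and 6.94 on the sh52 arrays, against 7.78 and 7.44 on the shGFP arrays, without overlap, a difference of -0.67 ± 0.15 (SE, limma's adjusted p 0.456), 1.59-fold lower. The other 2 genes outside the classes, CDK5 and CCNG2, were the only tested ones of the 38 with all hairpin arrays above both controls. CDK5, a kinase best known from neurons, read 9.46 and 9.13 on the sh50 arrays and 9.72 and 9.43 on the sh52 arrays, against 9.12 and 9.01 on the shGFP arrays, a difference of 0.37 ± 0.17 (SE, limma's adjusted p 0.577). CCNG2, an unconventional cyclin tied to cell cycle arrest, read 5.40 and 5.62 on the sh50 arrays and 6.33 and 5.47 on the sh52 arrays, against 5.29 and 5.30 on the shGFP arrays. Its difference of 0.41 ± 0.26 (SE, limma's adjusted p 0.701) was 0.20 without sh52 replicate 1, its highest array, and 0.63 without sh52 replicate 2.

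Each hairpin was then set against shGFP by itself, both comparisons sharing the same shGFP arrays. With sh50, 31 of the 38 genes had a lower mean (52.2% of all clusters), 19 lay wholly below shGFP (20.9%) and 5 wholly above (18.4%). With sh52, 30 had a lower mean (49.9% of all clusters), 21 lay wholly below (19.5%) and 3 above (20.2%). In limma's test 0 genes passed the adjusted threshold in either comparison, where 0.0% of all clusters did. At an unadjusted p under 0.05, 11 were lower and 0 higher with sh50, where 4.19% of all clusters were lower and 4.06% higher, and 12 were lower and 1 higher with sh52, where 4.51% and 4.27% were.

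CCNB1 differed by -1.56 ± 0.42 with sh50 and -1.98 ± 0.42 with sh52 (SE, limma's adjusted p 0.487 and 0.501). CCNB2 differed by -1.79 ± 0.32 with sh50 and -1.64 ± 0.32 with sh52, CDKN3 by -1.63 ± 0.32 and -1.22 ± 0.32, and CDC25C by -0.75 ± 0.19 and -0.96 ± 0.19. CCNF, CKS2 and CDK14 also had an unadjusted p under 0.05 and a lower mean in both comparisons. CCNA2 (by -1.82 ± 0.57), CDK2 (-1.25 ± 0.43), WEE1 (-0.74 ± 0.26) and CDK19 (-1.16 ± 0.39) had one with sh50, and CCND1 (-1.69 ± 0.64), CKS1B (-1.47 ± 0.48), CDC25B (-0.51 ± 0.18), CCNK (-1.15 ± 0.29) and CDK8 (-0.69 ± 0.20) with sh52. CDK5, with 0.51 ± 0.19, was the gene that stood higher with sh52. The limma adjusted p of all these genes lay between 0.475 and 0.578. Some of these values rest on 1 array: without sh50 replicate 2 the sh50 difference was -0.95 for CCNA2, -0.61 for CDK2, -0.71 for CKS2 and -0.45 for WEE1, and without sh50 replicate 1 it was -1.90 for CDK2. Without sh52 replicate 1 the sh52 difference was -1.03 for CCND1 and -0.59 for CCNF.

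Set directly against each other, sh52 and sh50 cells split the 38 genes evenly, with 19 lower and 19 higher in sh52 cells and a median difference of 0.0083, where 47.9% of all clusters were lower. In 8 genes both sh52 arrays lay below both sh50 arrays and in 4 above, where 16.6% and 17.3% of all clusters did. No gene passed limma's adjusted threshold (0.0% of all clusters), and 2 genes had an unadjusted p under 0.05, both lower in sh52 cells, where 3.38% of all clusters were lower and 2.96% higher. These were CCNK, -1.13 ± 0.29 (SE, limma's adjusted p 0.7), and CDK8, -0.52 ± 0.20 (SE, limma's adjusted p 0.776), or -0.29 without sh52 replicate 1. Both belong to the transcriptional class, whose median difference was -0.24 with 9 of 12 lower in sh52 cells, and the median of the cell cycle class was 0.25.

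Replicate 1 was compared with replicate 2 over the 3 groups, with the group as a factor. Of the 38 genes, 24 had a higher and 14 a lower mean in replicate 1, while 58.4% of all clusters were lower. In limma's test 9 clusters passed, all higher in replicate 1 (0.0267% of all clusters), and 0 of the 38 genes were among them, but 0 clusters passed when any sh50 or shGFP array was left out and 18 without either sh52 array. Leaving out either array of a group gave the same fit, since the array that remains then has no other number to be compared with. At an unadjusted p under 0.05, 3 genes were higher and 0 lower, where 4.01% of all clusters were higher and 6.34% lower. They were CDK1 (1.18 ± 0.31, SE, limma's adjusted p 0.359), CKS1B (0.85 ± 0.18, adjusted p 0.323) and CDK19 (0.67 ± 0.17, adjusted p 0.358). Replicate 1 was higher in all 3 groups for 11 genes and lower in all 3 for 5, where 11.3% and 20.1% of all clusters were.

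The direction of the replicate difference was not the same in each group. Among the 12 cell cycle cyclins and CDKs, replicate 1 was higher than replicate 2 in 11 genes in sh50 cells (median difference 0.96), in 2 in sh52 cells (-0.26) and in 9 in shGFP cells (0.17). Of all 33764 clusters, 13535 were higher in sh50 cells (median -0.0755), 17343 in sh52 cells (0.0121) and 13630 in shGFP cells (-0.07). The lowest array of these 12 genes was sh50 replicate 2 for 7 and sh52 replicate 1 for 5, and the highest was a shGFP array for 9. Lowest and highest arrays were not counted over all clusters. Taken between arrays of the same number, the median difference of these genes from shGFP was -0.66 and -1.70 for sh50 and -1.19 and -0.53 for sh52, replicate 1 before replicate 2. In 10 of the 12 genes the hairpin array was lower within both numbers, for sh50 and likewise for sh52. Both counts use the same shGFP arrays, and the matching share of all clusters was not counted. The same medians for the 12 transcriptional genes were 0.11 and -0.21 for sh50 and -0.14 and -0.38 for sh52, with 3 and 7 genes lower within both numbers. The range over the 6 arrays had a median of 2.24 in the cell cycle class and 0.93 in the transcriptional class, beside 0.65 over all clusters.

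**Figure D5:**
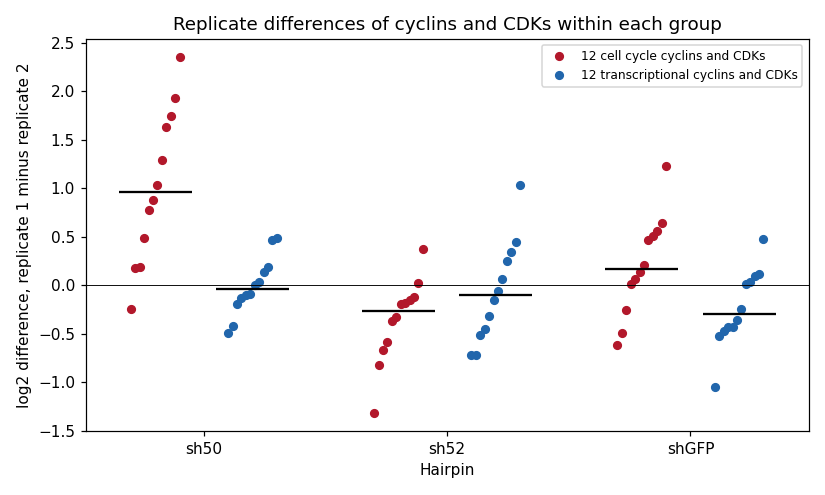
Replicate 1 minus replicate 2 in log2 units (vertical axis) for the 12 cell cycle and 12 transcriptional cyclins and CDKs tested, in sh50, sh52 and shGFP cells. Each gene is 1 point, the cell cycle class (red) left of the transcriptional class (blue), with a line at each median. In sh50 cells 11 of 12 cell cycle genes lie above 0, in sh52 cells 2 of 12 do, and in shGFP cells 9 of 12 do. Of all 33764 clusters, 13535, 17343 and 13630 were higher in replicate 1, in that order.

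Cell cycle genes of G2 and mitosis are known to carry a CHR element near the start site, bound by the DREAM and MMB complexes, often with CCAAT boxes bound by NF-Y upstream. Windows of 250 bases before to 50 after the start, from RefSeq on GRCh38.p14, were at hand for 36 of the 43 genes and not for CCND1, CCND2, CCNE2, CDK2, WEE1, PKMYT1 and CDKN1C. Both strands were searched for TTTGAA or TTTAAA (CHR), for CCAAT, and for the E2F letters TTTGGCGC, TTTCCCGC, TTTCGCGC or TTTGCCGC, and none of these strings contains another. CHR letters occurred anywhere in the windows of 17 of 36 genes (47.2%, against 27.9% of all genes), CCAAT in 21 (58.3% against 39.7%) and E2F letters in 3 (8.33% against 3.99%). By window, the shares were 33.9% against 24.0%, 44.6% against 34.6% and 7.14% against 3.31%.

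In 7 of the 36 genes (19.4%) the CHR letters began 35 to 25 bases before a start, an interval set after the matches were seen, and 2.48% of 27305 genes had such a match. The 120 bases before that start are printed for these 7, 5′ to 3′ on the gene's strand, with capitals for CHR and CCAAT letters on either strand (TTCAAA and ATTGG are the reverse readings). They are shown because the set holds genes that lay wholly below shGFP as well as 2 that did not.
CCNB1 (chr5:69167030-69167149, plus strand): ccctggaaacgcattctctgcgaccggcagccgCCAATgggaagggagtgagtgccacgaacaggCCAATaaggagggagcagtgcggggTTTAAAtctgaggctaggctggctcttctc
CCNB2 (chr15:59105026-59105145, plus strand): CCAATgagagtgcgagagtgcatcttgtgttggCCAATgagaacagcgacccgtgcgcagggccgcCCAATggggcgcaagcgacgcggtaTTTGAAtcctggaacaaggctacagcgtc
CCNE1 (chr19:29811871-29811990, plus strand): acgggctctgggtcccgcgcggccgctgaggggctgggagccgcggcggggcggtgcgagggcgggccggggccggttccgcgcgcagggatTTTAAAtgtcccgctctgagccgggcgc
CDC25C (chr5:138331805-138331924, minus strand): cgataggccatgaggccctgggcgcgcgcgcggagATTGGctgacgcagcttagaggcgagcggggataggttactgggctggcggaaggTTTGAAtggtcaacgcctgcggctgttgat
CDKN1B (chr12:12717248-12717367, plus strand): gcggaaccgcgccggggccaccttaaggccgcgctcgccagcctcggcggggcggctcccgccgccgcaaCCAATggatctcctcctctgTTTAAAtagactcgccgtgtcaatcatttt
CKS1B (chr1:154974561-154974680, plus strand): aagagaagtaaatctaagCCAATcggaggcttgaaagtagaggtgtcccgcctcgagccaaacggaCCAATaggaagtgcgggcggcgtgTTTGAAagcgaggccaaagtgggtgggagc
CKS2 (chr9:89311075-89311194, plus strand): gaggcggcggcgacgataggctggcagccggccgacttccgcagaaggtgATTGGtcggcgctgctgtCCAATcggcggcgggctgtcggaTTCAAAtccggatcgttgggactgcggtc

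The CHR letters began 30 bases before the start in CCNB1, CDC25C, CDKN1B and CKS1B, 29 in CCNB2 and CKS2, and 28 in CCNE1, and 6 of the 7 windows also held CCAAT letters, the exception being CCNE1. CDC25C has further start windows with no CHR letters at that place. In CCNB1, CCNB2, CDC25C, CKS1B and CKS2 all hairpin arrays lay below both shGFP arrays, with differences of -1.77, -1.71, -0.85, -1.32 and -1.21. Of all clusters, 10.1% lay wholly below in this way. CCNE1 and CDKN1B hold the letters at the same place, and their differences were 0.074 and 0.024. CCNA2, CDKN3, CCNF, CDK14, CDK8 and CDC25B have windows without CHR letters at that place and also lay wholly below. Their differences were -1.39, -1.42, -0.82, -0.67, -0.43 and -0.39. The other tested genes with windows but no such letters there did not lie wholly below. Whether the letters bear on the differences was not tested. Among the cell cycle class CHR letters anywhere in a window were found in 5 of 9 genes (55.6%) and in 5 of 13 of the transcriptional class (38.5%), and CCAAT in 6 of 9 (66.7%) and 6 of 13 (46.2%). A match describes letters in a window and is no measure of binding.

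Genes that act beside these were read from lists chosen with earlier results of these data known. Of 19 genes of the retinoblastoma, E2F and DREAM network tested, 16 had a lower and 3 a higher mean with the hairpins, 9 lay wholly below shGFP and 0 above, with a median of -0.51. Limma's adjusted test passed 0 of them, and 6 were lower and 0 higher at an unadjusted p under 0.05. Of all clusters, 50.8% had a lower mean, 10.1% lay wholly below and 8.98% above, and 4.83% were lower and 4.35% higher at that p. FOXM1, a transcription factor of mitotic genes, differed by -1.73 ± 0.33 (SE, limma's adjusted p 0.456), RBL1, a pocket protein of DREAM-type complexes, by -1.36 ± 0.48 (0.507), and MYBL2, a subunit of MMB, by -1.25 ± 0.32 (0.469). Of 21 other genes of the cyclin, CDK and inhibitor families tested, 12 had a lower and 9 a higher mean, 2 lay wholly below and 1 above, with a median of -0.044, and limma passed 0 of them, with 2 lower and 0 higher at an unadjusted p under 0.05. These counts are near the same shares of all clusters. CDKL1, a CDK-like kinase, differed by -0.57 ± 0.16 and CDK5RAP2, a centrosome protein, by -0.48 ± 0.14 (SE, limma's adjusted p 0.469 for each), and CCNJ, a cyclin of little known role, by -0.40 ± 0.39 (0.833).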

How the data were processed

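Total RNA of 6 samples was measured on Affymetrix human transcriptome arrays. Per the labels, the authors ran RMA at core level in Expression Console, and the deposited values are taken to be log2 expression values. No source used here gives the base of the logarithm or any further scaling, and the values lie between 1.38 and 19.9. Of 70523 features, 67528 transcript clusters were used, and the 33764 with a mean at or above the median of 3.98 were tested. Platform annotation gave 1 symbol to 23781 clusters and several to 1543, and 42204 were unnamed here, with symbols updated through a RefSeq gene table of GRCh38.p14. Array features are printed without coordinates, since no source used here names their build. The 3 group means were modelled over all 6 arrays in limma (version 3.58.1, R version 4.3.3) and contrasts tested two-sided with Benjamini-Hochberg adjustment over all clusters tested, at 0.05. Replicate 1 was set against replicate 2 in a fit with the group as a factor. The fits were tested on simulated data. The genes and lists were chosen with earlier results of these data known. All 43 genes are named, with SAT1, CDKN1A and, from each list of neighbouring genes, the 3 with the largest absolute difference. Alternatives were the replicate block, other filters, trend and robust options of the fit, centring, a repeated quantile normalization, only the groups compared, and each array left out. Promoter sequences are RefSeq's, on GRCh38.p14.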

Additional observations from a re-analysis of the deposited data

Results flagged for a closer look

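CDKN1B was picked out because every sample of one hairpin group moved one way from shGFP and every sample of the other moved the opposite way. It read 8.001 and 8.34 on the sh50 arrays and 7.89 and 7.69 on the sh52 arrays, against 7.94 and 7.98 on the shGFP arrays. The difference from shGFP was 0.21 for sh50 and -0.17 for sh52, and both differences share the same shGFP arrays. Set directly against each other, sh52 minus sh50 was -0.38 ± 0.19 (SE, limma's adjusted p 0.815), so the difference between the hairpins did not pass.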

How the results depend on the processing

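The count of clusters past limma's adjusted p of 0.05 was 0 for sh50, sh52 and their mean against shGFP and for sh52 against sh50, and stayed 0 with no filter, a filter at the 75th percentile, trend and robust options, quantile normalization again, median centring and, where it applies, only the groups compared (the mean of both hairpins uses all groups). At an unadjusted p the counts were 2784, 2964, 3102 and 2138. Leaving out 1 array gave 0 to 1 for sh52 against shGFP and 0 to 1 for sh52 against sh50, the 1 being HILPDA without sh52 replicate 2, where the lone sh52 array is assumed to vary like the other groups. For replicate 1 against replicate 2, leaving out 1 array gave 0 to 18 (9 with all arrays), 0 without any sh50 or shGFP array and 18 without either sh52 array, which also uses fewer samples. In that comparison the fits without either array of a group are the same fit, so they are not separate outcomes. The numbers 1 and 2 pair no samples by the labels, and deviations from the group means correlated at 0.052 between sh50 and sh52, 0.39 between sh50 and shGFP and 0.35 between sh52 and shGFP. With the replicate number as a block, 0 clusters were called in each of the 4 comparisons. The differences between class medians stayed at -0.96 (sh50), -0.42 (sh52) and -0.69 (mean of both). They could not move, because every group holds both numbers and the block then gives the same averages. The class difference of sh50 ranged from -1.41 to -0.58 when 1 array was left out. Over the alternatives for the mean of both hairpins, 437 values of the 38 genes kept their direction and 14 reversed. The replicate block, the other filters and the trend and robust options cannot change a gene's difference, so their values could not reverse. The reversals came with 1 array left out, for CCNC (-0.20 to 0.23), CCNE1 (-0.18 to 0.32), CCNL1 (-0.71 to 0.34), CDK7 (-0.10 to 0.13), CDKN1B (-0.062 to 0.11) and CDKN1C (-0.016 to 0.037). The cause was not tested. Counts of the 38 genes wholly below shGFP without 1 array were chosen after seeing the data: 18 and 15 without sh50 replicate 1 or 2, 16 and 17 without sh52 replicate 1 or 2, and 22 and 19 without shGFP replicate 1 or 2, where 12.7% to 25.7% of all clusters lay below. In the transcriptional class that count was 2 without either sh52 array, 6 without shGFP replicate 1 and 3 without shGFP replicate 2, against 1 with all arrays. Signal limits CCND2, CDKN2A and CDKN2B, under the filter, and PKMYT1 and CDKN1C, just above it.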

Other observations

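The ubiquitin ligases that remove cyclins and inhibitors, the anaphase-promoting complex and SCF, had 21 of 23 listed genes tested. Between the mean of both hairpins and shGFP, 15 had a lower and 6 a higher mean, 6 lay wholly below shGFP and 1 above, and the median difference was -0.18, where all clusters had a median of -0.0045. By limma 0 passed the adjusted threshold, and 3 were lower and 1 higher at an unadjusted p under 0.05. Of all clusters, 50.8% had a lower mean, 10.1% lay wholly below and 8.98% above, and 4.83% were lower and 4.35% higher at that p. CDC20, the activator of the anaphase-promoting complex in mitosis, read 9.35 and 8.84 on the sh50 arrays and 8.54 and 9.60 on the sh52 arrays, against 10.77 and 10.94 on the shGFP arrays, a difference of -1.77 ± 0.33 (SE, limma's adjusted p 0.456). UBE2S and UBE2C, ubiquitin-conjugating enzymes of that complex, differed by -1.39 ± 0.57 and -1.21 ± 0.39 (SE, limma's adjusted p 0.55 and 0.489). The UBE2S value is that of the brighter of 2 clusters annotated with its symbol. Whether that cluster stands for the UBE2S gene itself was not tested. Of 19 tested partners of the transcriptional CDKs, out of 25 listed, 12 had a lower and 7 a higher mean, 3 lay wholly below and 2 above, and the median was -0.052. By limma 0 passed there, with 0 lower and 1 higher at an unadjusted p under 0.05, to be read against the same shares of all clusters. HEXIM1, the inhibitor of the CDK9 complex, read 8.77 and 9.37 on the sh50 arrays and 8.06 and 8.64 on the sh52 arrays, against 7.68 and 7.54 on the shGFP arrays. Every hairpin array was over both controls, and the difference was 1.10 ± 0.25 (SE, limma's adjusted p 0.456). GTF2H1, a TFIIH subunit, differed by -0.80 ± 0.40, and MED13L, a subunit of the Mediator kinase module, by -0.46 ± 0.24 (SE, limma's adjusted p 0.621 and 0.635). Among the 9 clusters higher in replicate 1 over all 3 groups were PTGS2, CXCL8, IL6 and FGF7, named after their values were seen, and the other 5 were unnamed here.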
